A study of Mus musculus with 4 samples.

Results

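The genes described here encode the proteins that repair DNA crosslinks and alkylated bases. They are a set of 45 genes chosen by symbol, and every probe whose gene name in the scanner files equals one of those symbols was read on all 4 arrays. The array carries 110 such probes, out of 56605 probes under 37074 gene names. A probe detected on at least 1 array was found for 43 of the 45 genes, against 20738 gene names in the whole series.

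Cyclophosphamide (CY) is converted in the body to phosphoramide mustard, which joins guanines of the opposing DNA strands, and to acrolein, a reactive aldehyde that binds thiols and also forms DNA adducts. A crosslink is recognised and unhooked by the Fanconi anaemia proteins and structure-specific nucleases, and the resulting break is rejoined by homologous recombination or end joining. Smaller alkylated bases are reversed directly or cut out by excision repair, while mismatch repair proteins and damage kinases sense what remains. Adult heart muscle divides little, and several of these genes are known to be transcribed mainly in dividing cells.

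Heart RNA of female *C57BL/6J* mice was measured, 1 array for each of 4 conditions. The control mice received normal saline (NS). A dose of 400 mg/kg was given in the CY group and of 5 mg/kg in the acrolein group. The NAC + CY group received N-acetylcysteine (NAC, a thiol donor) at 200 mg/kg before the same dose of CY. The mice received 2 daily intraperitoneal injections and the hearts were taken 3 h after the last one. The labels give an age of 6 weeks, which differs from the age in the methods, and one passage of the study gives a later collection time. No allele or transgene is named for any group, and heart tissue was used rather than isolated cells, so that a lower signal from fewer cells of a type and from less RNA per cell cannot be told apart. Whether an array held the RNA of 1 mouse or of several is not given in the sources used here. With 1 array per condition there was no spread between replicates, no test could be run and no p-value is given.

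A log2 ratio is the log2 of the signal of one array over that of another, after the arrays were brought to a common distribution. A gene was called higher when its ratio was at least 1.5 and its Z-score at least 2, and lower at a ratio of at most 0.66 and a Z-score of at most -2. The Z-score is the distance of a log2 ratio from the mean of the 200 probes nearest in signal, in units of their SD (the window SD). Each gene is represented by its brightest detected probe. The 3 treated arrays share the NS array, so their ratios to NS are not independent of each other.

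All 4 arrays lay on 1 slide, and at least 47.1% of probes were well above background on each. The median SD of repeat spots within an array was 0.046 to 0.05 log2 units. All 10 cardiomyocyte markers were above background on every array. Their summed signal was 1674000 on NS, 1409000 on CY, 1674000 with acrolein and 1455000 with NAC + CY. Of these 10, 3 were called lower than NS on CY and 4 on NAC + CY, where 2.81% and 2.59% of all genes were. Markers of other cells also differed between the arrays. The summed signal of the 9 atrial markers was 307200 on NS, 820200 on CY, 383400 with acrolein and 496100 with NAC + CY, and that of the 10 mesothelial markers was 2630, 10510, 1544 and 2700. Of the T and NK cell markers, 7 were above background on NS, 8 on acrolein and 3 on each CY array. Of the 10 hepatocyte markers, 5 were on NS, CY and acrolein each and 10 on NAC + CY. Their summed signal was 4967 on NS, 12820 on CY, 4039 with acrolein and 18610 with NAC + CY. That of the 8 platelet markers was 2897, 7673, 2821 and 2092. The part of these differences in the values of the repair genes was not tested.

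Most results rest on 1 probe of 60 bases, so the probes that carry them are shown first. Of the 110 probes, 58 were well above background on all 4 arrays and 45 on none. The following are the first 30 bases of the probes for Xrcc4, the 1 gene that was called, for Xrcc2, Fancc, Atr and Mgmt, which were past the lower ratio limit alone on the CY array, and for Fancg, whose probes gave unlike ratios. The whole probes lie on mouse build mm9 at chr13:89988731-89988790 (Xrcc4), chr5:25196044-25196103 (Xrcc2), chr13:63412845-63412885 (Fancc, a span shorter than the probe), chr9:95851956-95852015 (Atr), chr7:144319790-144319849 (Mgmt), chr4:43015255-43015314 (Fancg, brighter probe) and chr4:43017838-43017897 (Fancg, dimmer probe).
Xrcc4: gggacacttttctccctttcttaattaaat
Xrcc2: tcggggtatcatgctccccagttaactctt
Fancc: agaaatgctgcaaggcaccactatagtgga
Atr: tgaaggacatgtgcattacctcatacaaga
Mgmt: atgacacatagatgtaacgcgtgtcggaag
Fancg, brighter probe: agcctttctgagggaaaggctatgttaatc
Fancg, dimmer probe: acccacctcctctctaggtccctgtatacc

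A pair of the bright signals came from probes that contain a long dinucleotide run. Runs of at least 8 TG or CA repeats were found in 113 of 56605 probes (0.2%) and in 2 probes of the repair genes, those of Rad51c and Ung. In the stretches of 30 bases below, the run is in capitals.
Rad51c: TGTGTGTGTGTGTGTGgtggtggtggtgtt
Ung: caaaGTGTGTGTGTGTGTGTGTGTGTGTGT
The Rad51c probe (mm9 chr11:87190997-87191056) gave 9094 units on NS, whereas a second Rad51c probe without a run, designed on a RefSeq mRNA, was above background on the acrolein array only. Ung has no second probe. The part of the runs in these signals was not tested, and results for both genes are given below with that limit.

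For Ogg1, a pair of probes lies at the same place (mm9 chr6:113284105-113284164) and differs at 3 of 60 bases, 2 of them within the 30 bases shown, in capitals.
Ogg1, RefSeq probe: gagcaaaAggaactgtcttgttttatTttc
Ogg1, cDNA clone probe: gagcaaaCggaactgtcttgttttatCttc
The log2 ratio of CY to NS was 0.00 on the RefSeq probe and 0.31 on the clone probe, and that of acrolein was -0.27 and 0.00. For NAC + CY it was 0.08 and 0.28. The pair thus differed by about 0.3 log2 units in the first comparisons and by less in the last.

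After CY, most repair genes had signals close to those on NS. Of 42 genes measured, 0 were called higher and 1, Xrcc4, was called lower, where 3.38% of all 19721 genes were called higher and 2.81% lower. The ratios of 36 of the 42 genes lay within 1.5-fold of NS. Their median log2 ratio was -0.025, beside -0.016 for all genes, and their quartiles were -0.318 and 0.209. By the ratio alone, 1 gene was past the limit upwards (Xrcc3) and 5 downwards (Xrcc4, Xrcc2, Fancc, Atr and Mgmt), where 11.7% and 10.7% of all genes were. The CY array could call only large changes in these genes: 2 window SDs had a median of 1.09 log2 units, or 2.14-fold, and ranged from 0.783 to 1.92 log2 units.

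After acrolein, 0 of 43 genes were called higher and 0 lower, where 1.08% and 1.29% of all genes were. By the ratio alone, Fanci and Rad54l were past the upper limit and none past the lower, where 3.97% and 2.87% of all genes were. Rad54l was not well above background on NS, and its bound of at least 1.36-fold does not reach the limit of 1.5. The Z-score limit was much finer here than on the CY array, with 2 window SDs at a median of 0.371 log2 units, or 1.29-fold. A call still needed a ratio of at least 1.5 or at most 0.66, so smaller changes could not be called. The median log2 ratio was 0.038, beside 0.008 for all genes, and 40 of 43 genes lay within 1.5-fold.

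With NAC before CY, 0 of 42 genes were called higher than NS and 1 lower, again Xrcc4, where 2.68% and 2.59% of all genes were called. By the ratio alone, 0 genes were higher and 5 lower (Xrcc4, Fancc, Xrcc2, Fanci and Mgmt), where 9.61% and 9.67% of all genes were. The median log2 ratio to NS was 0.121, beside -0.009 for all genes, but it depended on the processing and was 0.014 with no filter on P flags, 0.026 with the median over probes and 0.051 with normexp background correction. Set directly against the CY array, NAC + CY gave 0 calls higher and 0 lower among 41 genes, where 1.54% and 2.82% of all genes were called. All 41 lay within 1.5-fold of CY, whereas 5.82% of all genes were past the ratio limit upwards and 7.86% downwards.

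**Figure D1:**
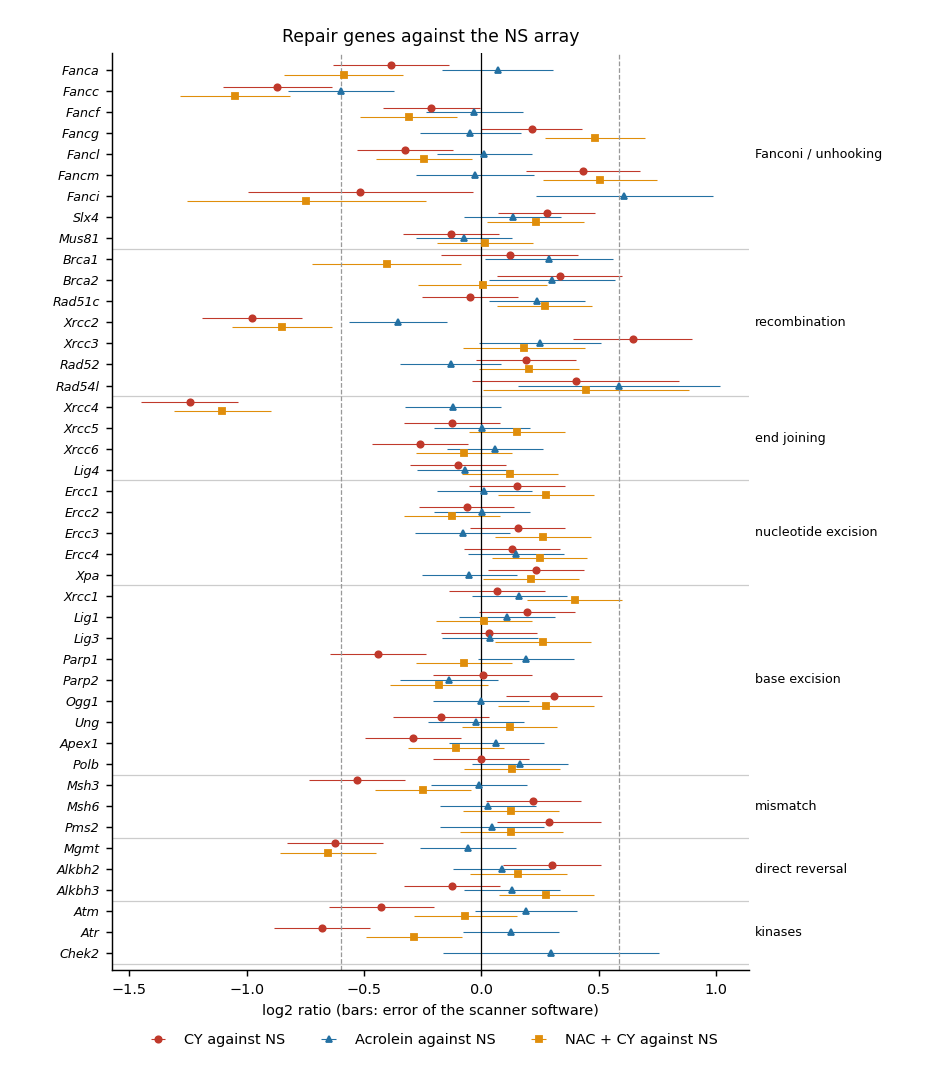
Log2 ratios of the 43 detected repair genes to the NS array on the CY (circles), acrolein (triangles) and NAC + CY (squares) arrays, by role. Bars are the error of the ratio that the scanner software states for the spots (1 array per condition, no replicate error), and dashed lines are the ratio limits of 1.5 and 0.66. Xrcc4 lies at -1.24 on CY and -1.10 on NAC + CY, and most other genes lie between the dashed lines.

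Among the 3 genes of direct reversal, none was called in any comparison. Mgmt encodes the methyltransferase that takes alkyl groups from guanine onto itself. Its signal was 1323 on NS, 859.0 on CY, 1272 with acrolein and 841.9 with NAC + CY. Its log2 ratio to NS was -0.62 on CY (Z-score -1.22), -0.65 on NAC + CY (Z-score -1.73) and -0.06 with acrolein. A second Mgmt probe, designed on a cDNA clone, was not well above background on NS or CY and so gives only a bound, at least 1.11-fold higher on acrolein than on NS, with no fold given for NAC + CY over NS. Alkbh3, a dioxygenase that removes methyl groups from single-stranded DNA and RNA, had 3240 units on NS, 2971 on CY, 3542 with acrolein and 3926 with NAC + CY. Its log2 ratio of NAC + CY to CY, 0.40, was the highest among the brightest probes of the repair genes in that comparison and passed neither limit. For CY against NS the brightest Alkbh3 probe gave -0.125, and its other detected probes gave 0.119 and -0.216. Alkbh2, which acts on double-stranded DNA, had 152.9, 188.3, 162.3 and 170.6 units in the same order of arrays.

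None of the 9 genes of base excision and strand break repair was called, and the brightest probes of all 9 lay within 1.5-fold of NS on every treated array. Parp1 encodes the polymerase that marks strand breaks with poly(ADP-ribose). Its signal was 507.5 on NS, 374.2 on CY, 578.6 with acrolein and 481.7 with NAC + CY, and the CY array, at a log2 ratio of -0.44, was the lowest of the 4. Xrcc1, the scaffold on which strand breaks are rejoined, had 1405 units on NS, 1472 on CY, 1572 with acrolein and 1850 with NAC + CY, so that NAC + CY was highest, at 0.40. For Parp2, a relative of Parp1, the log2 ratios to NS were 0.01 on CY, -0.14 with acrolein and -0.18 with NAC + CY. Its second probe gave 0.26, 0.23 and 0.26, so the sign on acrolein and on NAC + CY depended on the probe. The DNA ligases gave 0.19, 0.11 and 0.01 for Lig1 and 0.03, 0.04 and 0.26 for Lig3 in the same order. A dimmer detected Lig3 probe gave -0.22, -0.48 and 0.02. Polb, the polymerase that fills the gap, gave 0.00, 0.17 and 0.13. Apex1, the endonuclease that opens the site left by a glycosylase, gave -0.29, 0.06 and -0.11, and its second bright probe gave -0.16, 0.03 and -0.06, while a dimmer one gave 0.15, 0.64 and 0.77. Of the glycosylases, the Ung probe with the dinucleotide run gave -0.17, -0.02 and 0.12, and the brighter Ogg1 probe, for oxidised guanine, had 636.6 units on NS, 788.7 on CY, 636.2 with acrolein and 770.1 with NAC + CY.

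Nucleotide excision repair removes bulky adducts, and all of its 5 genes lay within 1.5-fold of NS on every treated array. Their log2 ratios to NS ran from -0.063 to 0.234 on CY, from -0.08 to 0.147 on acrolein and from -0.126 to 0.275 on NAC + CY. Xpa, which verifies the damage, gave 0.23 on CY, -0.05 with acrolein and 0.21 with NAC + CY. Ercc1, partner of Ercc4 in the nuclease that also unhooks crosslinks, had 1955 units on NS, 2170 on CY, 1972 with acrolein and 2366 with NAC + CY. Its second probe gave 0.32 on CY and 0.48 on NAC + CY, beside 0.15 and 0.28 on the brighter one. The nuclease subunit Ercc4 had log2 ratios of 0.13 on CY, 0.15 with acrolein and 0.25 with NAC + CY. The helicases of the transcription factor TFIIH that unwind the DNA are Ercc2 and Ercc3. Ercc3 had 1084, 1206, 1025 and 1302 units, highest on NAC + CY at a log2 ratio of 0.26, and Ercc2 gave -0.06, 0.00 and -0.13.

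Of the 3 mismatch repair genes, Msh3 had the largest ratio and none was called. Msh3, which takes part in recognising insertion and deletion loops, had 415.4 units on NS, 287.9 on CY, 412.2 with acrolein and 349.2 with NAC + CY. Its log2 ratio of CY to NS was -0.53 (Z-score -1.14), and its second probe gave -0.45. Msh6, which takes part in recognising base mismatches, gave log2 ratios of 0.22 on CY, 0.03 with acrolein and 0.13 with NAC + CY. Pms2, a subunit of the endonuclease that nicks the strand, has the most probes of the repair genes, 9, of which 1 was detected on all 4 arrays. This probe had 79.91, 97.60, 82.48 and 87.34 units, and CY was the highest, at 0.29.

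None of the Fanconi anaemia genes and unhooking nucleases was called in any comparison. Of 10 genes, 9 were detected on at least 1 array. Fancd2, the protein that is ubiquitinated at a crosslink, was not detected by either of its 2 probes, whose signals of 2.89 to 3.23 units were not well above background. The median log2 ratio of the 9 genes was -0.213 on CY, -0.026 with acrolein and -0.243 with NAC + CY. Fancc, a subunit of the core complex that carries the ubiquitin ligase, had 86.48 units on NS, 47.35 on CY, 57.11 with acrolein and 41.75 with NAC + CY. All 3 treated arrays lay below NS, at log2 ratios of -0.87, -0.60 and -1.05, and against the acrolein array the CY arrays were at -0.27 and -0.45. On acrolein the Z-score of Fancc was -2.26, past the limit, while the ratio missed its limit. The second Fancc probe was not above background on any array and gave no check.

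Fanci, the partner of Fancd2, had 19.33 units on NS, 13.53 on CY, 29.48 with acrolein and 11.53 with NAC + CY. It was above background on NS and acrolein only. A signal not well above background gives a bound, and taking the higher of the dim signal and the lowest detected signal on that array, Fanci was at least 1.43-fold lower than NS on CY and at least 1.545-fold lower on NAC + CY. On acrolein its log2 ratio to NS was 0.61 (Z-score 1.21).

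Fancg, another core complex subunit, gave unlike answers from its probes. The brighter probe had 104.0 units on NS, 120.6 on CY, 100.5 with acrolein and 145.2 with NAC + CY, and the dimmer one 51.22, 38.80, 30.36 and 36.60. On acrolein the dimmer probe met the criteria for a lower call (log2 ratio -0.75, Z-score -2.33), whereas the brighter probe was at -0.05. On CY the probes gave -0.40 and 0.21, the widest gap of any repair gene in that comparison.

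The remaining Fanconi genes and nucleases are given by their ratios. Fanca gave log2 ratios of -0.38 on CY, 0.07 with acrolein and -0.59 with NAC + CY, while its second probe gave 0.11, 0.01 and -0.01. Fancf gave -0.21, -0.03 and -0.31, and Fancl, the ligase subunit, gave -0.33, 0.01 and -0.24. Fancm, the translocase that brings the complex to DNA, gave 0.43, -0.03 and 0.51. Its second probe gave 0.14, -0.18 and -0.33, so the sign on NAC + CY depended on the probe. The nuclease subunit Mus81 gave -0.13, -0.07 and 0.01, and Slx4, the scaffold of the nucleases, gave 0.28, 0.13 and 0.23.

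In homologous recombination, 7 of 8 genes were detected and none was called. Xrcc2, a protein of the recombination step, had 138.1 units on NS, 70.07 on CY, 107.9 with acrolein and 76.72 with NAC + CY. Its log2 ratio to NS was -0.98 on CY (Z-score -1.58), -0.36 on acrolein (Z-score -1.63) and -0.85 on NAC + CY (Z-score -1.39). Against the acrolein array, CY was at -0.62 and NAC + CY at -0.49.

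Xrcc3, which also acts in recombination, was the 1 gene past the upper ratio limit on CY, without a call. It had 37.77 units on NS, 59.02 on CY, 44.86 with acrolein and 42.86 with NAC + CY, and CY was highest, at a log2 ratio of 0.64 (Z-score 0.77). Rad54l, a motor protein of recombination, was not well above background on NS (14.88 units) and had 19.66 units on CY, 22.33 with acrolein and 20.27 with NAC + CY, so it was at least 1.19-fold, 1.36-fold and 1.23-fold higher than NS. The probe with the dinucleotide run for Rad51c gave log2 ratios of -0.05, 0.24 and 0.27.

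Brca1, which directs broken ends into recombination, gave 0.12 on CY, 0.29 with acrolein and -0.40 with NAC + CY. Brca2, which acts in recombination at breaks, gave 0.33, 0.30 and 0.01, and its second probe gave 0.01, 0.52 and -0.02. Palb2, which bridges Brca1 and Brca2, was not detected on any array by its 3 probes, with signals from 2.71 to 8.19 units. Rad52, which anneals single strands, had 101.9 units on NS, 116.4 on CY, 93.10 with acrolein and 117.3 with NAC + CY. It gave log2 ratios of 0.19, -0.13 and 0.20, and its second probe gave 0.37, -0.21 and -0.25, so the sign on NAC + CY depended on the probe.

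Of the 4 end joining genes, Xrcc4 was called lower on both CY arrays. Xrcc4 is the partner of DNA ligase IV in sealing double-strand breaks. Its signal was 357.0 on NS, 150.9 on CY, 328.5 with acrolein and 166.1 with NAC + CY. Both CY arrays lay below both arrays without CY, as they also did for Mgmt and Xrcc2, among others. The share of all genes that split the arrays in this way is not given here, so the split is not read as a result about Xrcc4. The log2 ratio to NS was -1.24 on CY (scanner error 0.206, Z-score -2.06) and -1.10 on NAC + CY (scanner error 0.206, Z-score -2.32), a 2.37-fold and a 2.15-fold lower signal, while acrolein was at -0.12. Both Z-scores lay just past the limit of -2. When the acrolein array stood in for NS, the log2 ratios were -1.12 and -0.98, and with Z-scores of -1.81 and -1.45 neither was called. The second Xrcc4 probe was not above background on any array and gave no check. NAC + CY differed from CY by 0.14.

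The other end joining genes had small ratios. Lig4, the ligase that Xrcc4 supports, gave log2 ratios of -0.10 on CY, -0.07 with acrolein and 0.12 with NAC + CY. Xrcc6 and Xrcc5 form the Ku ring that binds broken ends. Xrcc6 had 2485 units on NS, 2073 on CY, 2588 with acrolein and 2359 with NAC + CY, lowest on CY at -0.26, and Xrcc5 had 940.8, 863.2, 943.1 and 1045 units, lowest on CY at -0.12.

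Among the damage kinases, Atr and Atm had lower signals on CY than on the other arrays, and neither was called. Atr responds to stalled replication forks, and it had 643.8 units on NS, 402.3 on CY, 702.5 with acrolein and 527.3 with NAC + CY. Its log2 ratio to NS was -0.68 on CY (Z-score -1.14), 0.13 on acrolein and -0.29 on NAC + CY, and NAC + CY was 0.39 above CY (Z-score 1.12). The other Atr probes were not above background on any array and gave no check. Atm responds to double-strand breaks, and it had 76.86, 57.15, 87.60 and 73.27 units, with -0.43 on CY (Z-score -0.77) and -0.30 on its second probe. Chek2, a kinase that Atm activates, was above background on acrolein only (16.78 units), at least 1.02-fold higher than NS.

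**Figure D2:**
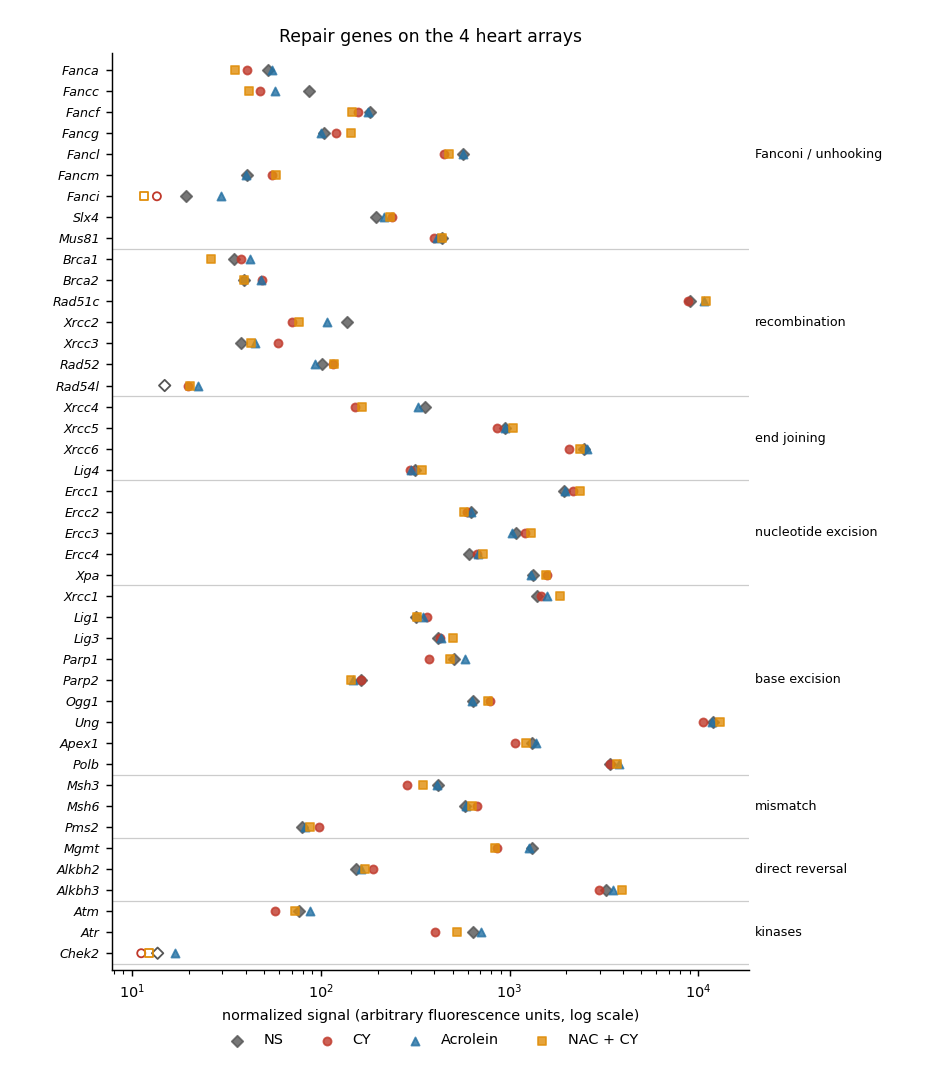
Normalised signals (arbitrary fluorescence units, log scale) of the brightest detected probe of 43 repair genes on the NS (diamonds), CY (circles), acrolein (triangles) and NAC + CY (squares) arrays, 1 array each. Open symbols are signals not well above background. Xrcc4 had 150.9 and 166.1 units on the CY arrays and 328.5 and 357.0 on the arrays without CY, while the 4 symbols of most genes lie together. Mgmt and Xrcc2, among others, were also lower on both CY arrays than on both arrays without CY. The share of all genes that do so is not given here. Positions along the axis compare arrays within a gene, not genes.

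Over the 4 arrays together, 30 of 43 repair genes (69.8%) stayed within 1.5-fold from their lowest to their highest array, beside 60.3% of all 20738 detected genes. The median range was 0.333 log2 units, beside 0.469 for all genes. Among genes above background on all 4 arrays, the widest ranges were those of Xrcc4 (1.24), Fancc (1.05), Xrcc2 (0.98) and Atr (0.80), and the range of Fanci is only bounded. The narrowest were those of Ercc2 (0.13) and Mus81 (0.15).

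Where a gene had several detected probes, their agreement gave a measure of spread within an array pair. In CY against NS, 18 genes had at least 2 such probes, and the pooled SD of log2 ratios within a gene was 0.205. In 11 of the 18 genes all probes had the same sign. The SD was 0.245 for acrolein and 0.372 for NAC + CY against NS, and 0.2 for NAC + CY against CY. Each of these SDs includes the second Mgmt probe, whose ratio is over a signal not well above background. The error stated by the scanner software for a log2 ratio had a median of 0.205 in each comparison. Probes of some genes were designed on different transcripts, so their spread may not be error of measurement alone. Both measures leave out the difference between mice or pools of mice.

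**Figure D3:**
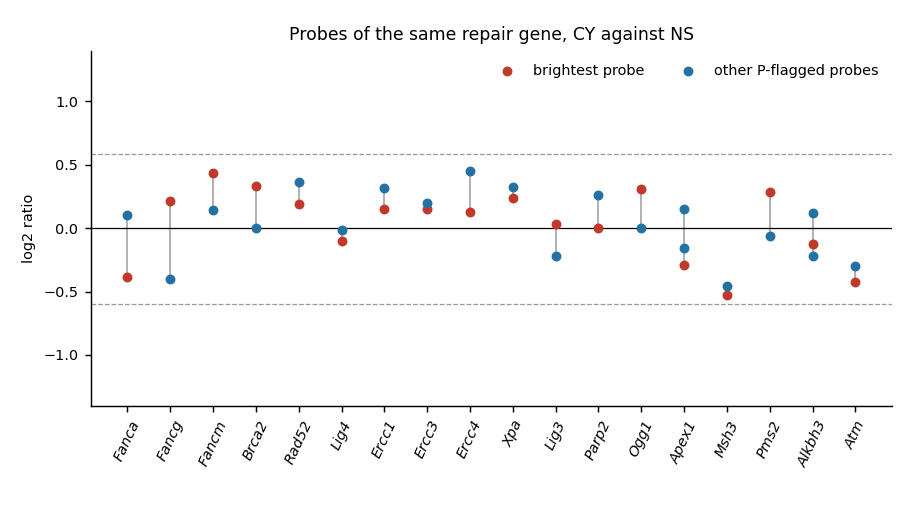
Log2 ratios of CY to NS for the 18 repair genes with at least 2 detected probes. Red points are the brightest probe, blue points the others, grey lines join the probes of a gene, and dashed lines are the ratio limits. Fancg has the longest line (0.615 log2 units), and no probe shown is past a ratio limit.

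The other genes of these pathways were read from a list of 111. On CY, 98 were measured, of which 1 was called higher and 2 lower, where 3.38% and 2.81% of all genes were, so these shares are at or below the background. Their median log2 ratio was 0.052. Neil2, a glycosylase for oxidised bases, had 66.87 units on NS, 139.9 on CY, 78.80 with acrolein and 155.4 with NAC + CY, and was called higher on both CY arrays (1.07 and 1.22). Polq, the polymerase of microhomology-mediated end joining, had 92.91, 21.62, 133.5 and 57.83 units and was called lower on CY (-2.10). Fto, a demethylase related to the Alkbh enzymes that is best known for acting on RNA, had 571.2, 228.1, 591.0 and 358.8 units and was called lower on CY (-1.32).

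On acrolein, none of 98 measured genes of that list was called. On NAC + CY, 3 of 101 were called higher than NS and none lower, where 2.68% and 2.59% of all genes were: Poln, a translesion polymerase (1.62), Neil2, and Atrip, the partner of Atr (0.73). Against CY, 3 of 100 were called higher on NAC + CY and none lower, where 1.54% and 2.82% of all genes were, namely Polq (1.42), Timeless (0.78), which protects stalled forks, and Fto (0.65).

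Known targets of the damage-activated factor p53 were set beside the repair genes on the same arrays. Of 24 measured, 10 were called higher on CY and none lower, where 3.38% and 2.81% of all genes were. Their median log2 ratio was 0.627. Cdkn1a, the cell cycle inhibitor p21, had 975.6 units on NS, 5910 on CY, 1083 with acrolein and 4901 with NAC + CY. Gdf15, a secreted stress factor, had 156.3, 1212, 235.1 and 1473 units, and Phlda3, an inhibitor of Akt signalling, had 2477, 9223, 2081 and 7689. Mdm2, the ubiquitin ligase for p53, and Ccng1, a cyclin, were not called on CY (0.72 and -0.53).

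On NAC + CY, 9 of the 24 p53 targets were called higher than NS, where 2.68% of all genes were. None was called against CY, where 1.54% of all genes were called higher and 2.82% lower. On acrolein, 1 of 23 was called higher (Gdf15, 0.59), where 1.08% of all genes were. Of 29 genes of cycling cells, 23 were measured for CY against NS, 23 for acrolein and 22 for NAC + CY. Against CY, 22 were measured. None was called in any of the 4 comparisons, where 1.08% to 3.38% of all genes were called higher and 1.29% to 2.82% lower. Only large changes from NS could be called on the CY arrays, where 2 window SDs had medians of 2.43-fold and 2.28-fold. With NAC before CY, 16 of the 22 lay below NS and 5 above, at a median log2 ratio of -0.247, beside -0.009 for all genes. Of all genes, 10106 of 19808 lay below NS there. On CY, 14 of the 23 cycling genes lay below NS and 9 above, at a median of -0.044, beside -0.016 for all genes. With acrolein the counts were also 14 and 9, at a median of -0.03, beside 0.008. Mki67, a marker of proliferation, had 68.02 units on NS, 43.48 on CY, 92.79 with acrolein and 44.46 with NAC + CY, and Top2a, the topoisomerase of dividing cells, was above background on 2 arrays only.

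**Figure D4:**
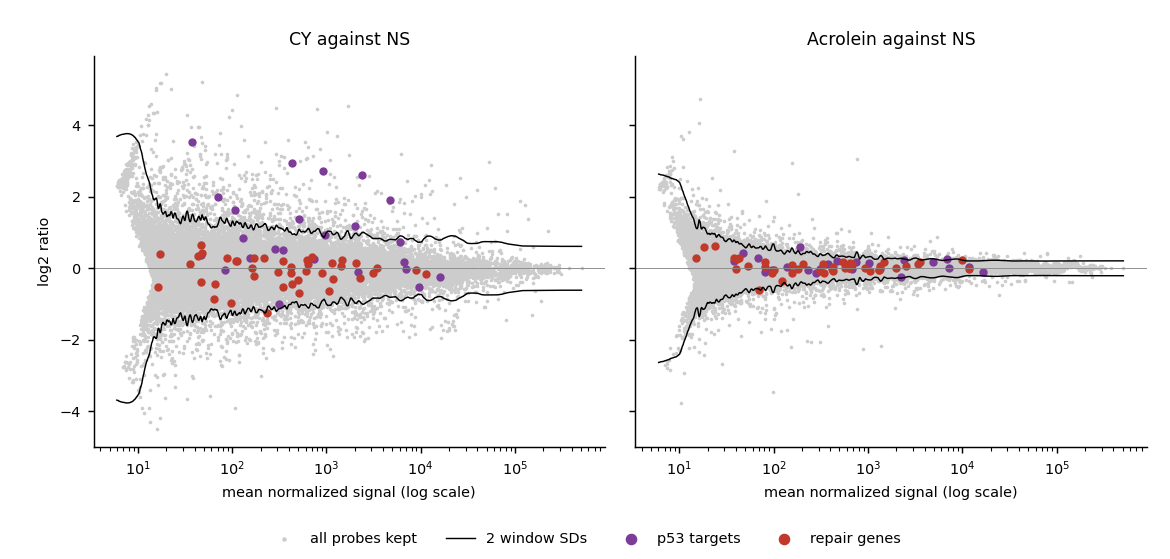
Log2 ratio to NS against the mean signal of the array pair (log scale) for CY (left) and acrolein (right). Grey points are all probes kept, red points the repair genes, purple points the p53 targets, and black lines lie 2 window SDs, smoothed along the signal, above and below 0. On CY the repair genes lie between the lines except Xrcc4 (-1.24), whereas 10 of 24 p53 targets were called higher, beside 3.38% of all genes. The lines are much closer together on acrolein.

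The promoters were searched for the letters of the E2F motif (TTTCGCGC and TTTGGCGC) and of the CHR motif (TTTGAA), both strands, since both are known from genes of dividing cells. RefSeq windows on GRCm38.p6, 250 bases before to 50 after each start, were given for 41 of the 45 genes, and not for Ercc3, Fancd2, Polb and Xrcc2. The E2F letters occurred in the windows of 3 genes (7.3%), Lig1, Msh3 and Rad51c, beside 251 of 27025 genes with a promoter (0.9%). The CHR letters occurred in 0 of 41, beside 20.2% of all. The windows of the repair genes had a median GC content of 60.0%, beside 52.7% for all windows. The 6 letters of CHR are rich in A and T, and those of E2F are mostly G and C. The part of GC content in both shares was not tested. A match is a run of letters and not a binding site, and none of the 3 genes was called.

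Msh3 held overlapping matches on both strands, in capitals, in its window (GRCm38.p6 chr13:92354954-92355253, minus strand). It is shown as the member whose log2 ratio on CY was farthest from 0 among the 3.
Msh3: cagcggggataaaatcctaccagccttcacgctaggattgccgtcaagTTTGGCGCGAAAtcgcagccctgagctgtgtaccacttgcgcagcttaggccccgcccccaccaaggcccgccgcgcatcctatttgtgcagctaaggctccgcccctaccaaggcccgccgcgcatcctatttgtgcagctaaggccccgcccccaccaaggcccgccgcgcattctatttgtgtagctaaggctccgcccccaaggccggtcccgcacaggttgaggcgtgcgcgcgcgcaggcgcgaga
The window of Xrcc4, the 1 gene called, held neither motif (GRCm38.p6 chr13:90089559-90089858, minus strand).
Xrcc4: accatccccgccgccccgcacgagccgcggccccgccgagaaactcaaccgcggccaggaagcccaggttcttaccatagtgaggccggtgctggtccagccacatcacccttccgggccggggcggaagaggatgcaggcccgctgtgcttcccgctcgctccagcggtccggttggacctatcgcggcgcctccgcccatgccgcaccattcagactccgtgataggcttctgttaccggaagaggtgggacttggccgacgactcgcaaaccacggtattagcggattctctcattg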

How the data were processed

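Heart RNA was hybridised to 4 single-colour Agilent arrays. The deposited intensity of each spot is a background-subtracted signal from Agilent Feature Extraction, for which the headers name version 10.7.1.1 and the submitters' processing notes 9.5.1.1. A second set of linear intensities, deposited by the authors for the whole series, had been brought to 1 common distribution and was used as an alternative after log2 transformation.

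Log2 signals of 59305 non-control spots were quantile-normalised over the 4 arrays, spots of a probe were averaged, and a probe entered a comparison when it carried a P flag (detected, well above background) on at least 1 of its 2 arrays. Criteria followed the methods, and the window of 200 probes was chosen here. No spot was saturated. The repair genes and the other lists were chosen with earlier results of these data known. All repair genes were named. Signals are given for called genes, up to 2 others of each role with the largest ratio to NS, and Fancg, Ogg1, Rad52, Alkbh3, Rad54l and Chek2, picked after their values were seen. Of other lists, up to 4 called genes each are named, beside Cdkn1a, Mdm2, Ccng1, Phlda3, Gdf15, Mki67 and Top2a. Probe positions are those in the scanner files, and promoters come from RefSeq (GRCm38.p6). The calling rule was tried on simulated data with the spread of acrolein against NS. This does not cover the wider spread on the CY arrays, where the calls were made. Other settings tried were 10 listed at the start and 3 added after seeing the data. Python 3.11.15, numpy 2.4.6, pandas 2.3.3 and limma 3.58.1 (R 4.3.3, normexp) were used. The number of arrays, 1 per condition, limits the precision of every value.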

Additional observations from a re-analysis of the deposited data

How the results depend on the processing

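Of 266 values recomputed, 242 kept their side of the criteria or moved little, and no called value changed sign. With a Z-score limit of 3, Xrcc4 was no longer called, which left 0 genes lower on CY and 0 on NAC + CY. With the ratio alone, 1 gene was higher and 5 lower on CY, 2 were higher on acrolein (of which Rad54l, bounded at 1.36-fold, is not shown to pass) and 5 were lower on NAC + CY. With any probe counted, 1 gene was lower on acrolein (Fancg). With the acrolein array in place of NS, an alternative chosen after seeing the data, 0 genes were lower on CY and 0 on NAC + CY, Xrcc4 was at -1.12 and -0.98, and the median log2 ratios were -0.128 and -0.045. The median for NAC + CY against NS, 0.121, was 0.051 with normexp background correction, 0.014 with no filter on P flags, 0.026 with the median over probes and 0.069 without the probes that hold dinucleotide runs, the last also chosen after seeing the data. The cause of these shifts was not tested. No paired analysis was possible because each group is 1 array. Changes under 2.14-fold could not be called for the median repair gene on CY, and 1 array per condition gives no error between mice or pools of mice.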
